A study of Mus musculus with 36 samples.

Results

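The genes described here are 34 genes of the basement membrane, followed across CHIR doses and across removal of the β-catenin transcriptional complex in mouse nephron progenitor cells (NPCs). They were taken by gene symbol from the Ensembl identifiers of 3 tables of normalized counts, not by their values, and make up 34 of the 30125 genes listed in any table. They comprise the 6 collagen IV chains (Col4a1 to Col4a6), 5 laminin α chains (Lama1 to Lama5), 5 laminin β and γ chains (Lamb1, Lamb2, Lamb3, Lamc1 and Lamc3), both nidogens with the heparan sulfate proteoglycans Hspg2 and Agrn, and the related collagens Col15a1 and Col18a1. The remainder are the Fraser complex genes Fras1, Frem1, Frem2 and Grip1, the associated secreted proteins Sparc, Smoc1, Smoc2, Fbln1, Fbln2 and Tinagl1, and the laminin receptor Dag1 with the collagen IV cross-linking enzyme Pxdn. All of them were listed in every table, at positions from the GENCODE vM21 annotation of GRCm38.

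A basement membrane is a thin sheet of extracellular matrix on which epithelia rest. Laminin trimers, each of an α, a β and a γ chain, polymerise at the cell surface, collagen IV trimers form a second cross-linked network, and nidogens and perlecan (Hspg2) bridge them. In the developing kidney, NPCs are mesenchymal, and the epithelial vesicle that they form on induction by Wnt signals lays down a basement membrane of its own. CHIR99021 (CHIR) inhibits GSK3β and so stabilises β-catenin, which acts on target genes through the DNA-binding factors Tcf7l1, Tcf7l2, Tcf7 and Lef1. The authors describe Lef1 and Tcf7 as mostly activators, Tcf7l1 as a repressor and Tcf7l2 as able to be either.

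The 36 RNA-seq libraries came from primary NPCs of embryonic mouse kidneys, obtained by digestion and magnetic depletion of other cells and kept in NPC expansion medium on Matrigel, itself a basement membrane extract. Wild-type NPCs received 0 µM (no CHIR), 1.25 µM (low CHIR) or 5 µM CHIR (high CHIR) for 24 h, with 3 libraries each. In the β-catenin set, Cas9-eGFP NPCs received an sgRNA to Ctnnb1 or, as control, to GFP, and NPCs of genotype B-catenin_c_c, with conditional alleles of β-catenin, were treated with Cre or not. These 4 kinds of cells were held in low CHIR for 24 h after transfection and then for 24 h in low or high CHIR, with 2 libraries per group. In the Tcf/Lef set, Cas9-eGFP NPCs received sgRNAs to all 4 Tcf/Lef genes (QKO) or to GFP, were held in low CHIR for 48 h and then in either dose for 24 h. That set has 3 libraries per group except for 2 in QKO at low CHIR. Transfected cells of both sets also carried mCherry mRNA and were sorted for it. No source used here states that replicates came from separate animals or cultures, so p-values measure the spread between these libraries only.

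Depth ran from 13089780 to 76071568 reads on genes (median 18990328.5), and the deepest library was replicate 1 of the wild-type group without CHIR. The labels held for the NPC marker Six2, at 2716, 2979 and 3072 normalized counts in low CHIR and 60.5, 79.6 and 65.4 in high CHIR in wild-type NPCs. Ctnnb1 was lower with the Ctnnb1 sgRNA at high CHIR (1629.9 and 1270.1) than with the GFP sgRNA (2632 and 2701). With Cre, Ctnnb1 was not lower at high CHIR (2254 and 2583, against 2423 and 2207 without). At low CHIR it was lower with Cre, without overlap (3085 and 2451, against 3880 and 3097). A count over the whole gene does not check a deletion of part of it. Removal is used below for these treatments, and how much β-catenin was left in the cells is not measured by these libraries. In QKO NPCs at high CHIR, Lef1 stood at 255, 441 and 513 against 1504, 2743 and 1144 and Tcf7 at 109.5, 179.7 and 127 against 534, 535 and 268, while the ranges of Tcf7l1 (602, 539 and 736 against 612, 486 and 591) and Tcf7l2 (999, 1616 and 1481 against 1263, 2233 and 1750.0) overlapped. Replicate 3 of wild-type NPCs in high CHIR stood apart, with Wnt4 at 11108 against 1315 and 1473 in the other two and Jag1 at 3710 against 11451 and 13731.

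The antibodies used for the depletion included one to CD140a, a surface marker of stroma, the matrix-rich tissue around NPCs, yet stroma markers were detected in every library. The sum of 11 stroma markers ran from 4373 to 34066 in wild-type NPCs, from 4512 to 28672 in the β-catenin set and from 337 to 16923 in the Tcf/Lef set, and all 11 reached at least 10 normalized counts in some library of each table. The highest sums of ureteric epithelium, endothelial and blood markers were below the highest stroma sum of each set. Blood markers summed to at most 2822, in replicate 1 of the GFP sgRNA controls of the Tcf/Lef set at high CHIR. In replicate 3 of those controls endothelial markers (356) summed to more than stroma markers (337). Ureteric epithelium markers summed to at most 1738 and included Ret below 10 in every library, and endothelial markers summed to at most 1817 with Tie1 below 10 in every library. In these bulk libraries fewer cells of a type and less RNA per cell cannot be told apart.

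Promoter sequence was read from RefSeq (GRCm38.p6) to see whether the genes carry the letters that Tcf/Lef factors bind, CTTTGAT and its reverse complement ATCAAAG. In all, 24 of the 34 genes had an entry, with 33 start sites, and none is given here for Col4a3, Lama1, Lama3, Lama4, Lamc1, Lamc3, Nid2, Fras1, Smoc1 or Smoc2. None of the 33 windows of 250 bases upstream of a start held the 7 letters on either strand, against 3.21% of 32851 windows of the same length over all genes. The 5 core letters CTTTG or CAAAG, which lie within the 7, were in 16 of the 33 windows (11 genes) against 48.6% of all. Frem2 is shown because it rose with high CHIR in every control setting and its window held the core 3 times, as 3.94% of all windows do at least. The count did not follow the direction of the response, since 1 of the windows of Frem1, which fell in those settings, also held the core 3 times and 1 of Agrn, which was called in none, held it 4 times. Col4a6 is shown because it fell in the same settings and held the core once. The windows are chr3:53657356-53657605 for Frem2 and chrX:141474077-141474326 for Col4a6, both on the minus strand and clear of annotated exons, with the core in capitals.
Frem2: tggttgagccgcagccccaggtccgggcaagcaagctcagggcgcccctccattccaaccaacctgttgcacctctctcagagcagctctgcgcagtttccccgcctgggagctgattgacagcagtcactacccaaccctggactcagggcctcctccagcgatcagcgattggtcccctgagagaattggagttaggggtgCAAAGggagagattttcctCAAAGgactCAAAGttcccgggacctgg
Col4a6: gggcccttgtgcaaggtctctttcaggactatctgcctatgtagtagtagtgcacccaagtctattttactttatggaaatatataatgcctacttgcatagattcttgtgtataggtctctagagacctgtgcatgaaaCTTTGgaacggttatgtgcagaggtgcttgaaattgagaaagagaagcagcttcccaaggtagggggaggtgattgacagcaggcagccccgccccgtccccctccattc
A match is a description of the letters only. The starts of the paired collagen genes lie head to head, Col4a1 (minus strand) and Col4a2 (plus strand) on chromosome 8 with first bases at 11312826 and 11312805, and Col4a6 (minus) and Col4a5 (plus) on chromosome X with 1343 bases between them.

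Levels of different chains were compared per kilobase of merged exons. In wild-type NPCs at low CHIR, the collagen IV transcripts were mainly Col4a1 (482 ± 106 normalized counts per kilobase, SD, n = 3) and Col4a2 (285 ± 92.3), the chains of the form found in nearly all basement membranes. Col4a6 (66.9 ± 11.2) and Col4a5 (48.1 ± 16.7) were lower, and Col4a3 (0.470 ± 0.202) and Col4a4 (1.20 ± 0.45), chains of the mature glomerulus, were near 0. Among laminin chains Lamc1 (295 ± 42.4) and Lamb1 (232 ± 31.6) led, followed by Lamb2 (95.4 ± 16.8).

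The α chains, which give each laminin its receptor binding, were lower than these. Lama4 stood at 42.7 ± 14.2 per kilobase, Lama5 at 20.1 ± 11, Lama1 at 16.5 ± 4.4 and Lama2 at 1.85 ± 0.19, and the range of Lama5 overlapped those of Lama4 and Lama1. Sparc, a collagen-binding matricellular protein, was the highest of the 34 (21491 ± 2823). Nid2 came next at 1171 ± 156, ahead of its paralogue Nid1 at 131 ± 15.9. A mean of at least 10 normalized counts was set as the minimum for testing. Lama3, Lamc3 and Smoc1 were under it in all 3 tables, Col4a3 in the wild-type table, Lamb3 in the β-catenin and Tcf/Lef tables, and Col15a1 in the Tcf/Lef table, which left 30, 30 and 29 genes tested.

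To ask how basement membrane genes respond to the dose that induces differentiation, high and low CHIR were compared in wild-type NPCs. A gene was called where its adjusted p from limma, over all genes tested, was under 0.05 and its log2 fold change was 0.5 or more in size, computed on log2(normalized count + 1). The nidogen Nid2 and the Fraser complex gene Frem1 fell steeply, while Col18a1 and Frem2 rose. In all, 4 of 30 genes were called higher and 4 lower, against 5.33% and 5.05% of all genes tested (10.4% in either direction). The median log2 fold change was 0.02 over the members and 0.01 over all genes. Groups did not overlap for 11 members, against 30.8% of all genes.

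Nid2, which links laminin to collagen IV, stood at 5745, 5455 and 6975 normalized counts in low CHIR and at 396, 402 and 269 in high CHIR. It was thus 17.0-fold lower in high CHIR without overlap, with a log2 fold change of -4.10 (SE 0.29, adjusted p = 2.79e-05). Frem1, a secreted protein that stabilises the Fraser complex, went from 770.0, 795 and 795 to 150.1, 41.9 and 52.3, a log2 fold change of -3.49 (SE 0.39, adjusted p = 0.000382). Both genes were low in all 3 high-CHIR libraries, with replicate 1 the highest of them for Frem1.

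Col18a1, the proteoglycan collagen that releases endostatin, moved the other way. It stood at 1097, 355 and 432 in low CHIR and 4277, 3102 and 6293 in high CHIR, with a log2 fold change of 2.98 (SE 0.47, adjusted p = 0.00297). Frem2, the membrane partner of Fras1, went from 694, 295 and 469 to 2167, 1894 and 3684, a log2 fold change of 2.43 (SE 0.35, adjusted p = 0.00181). The low-CHIR libraries were uneven for both, replicate 1 being the highest, yet all lay below the high-CHIR libraries. Endothelial markers summed to 374, 317 and 326 in low CHIR and 1325, 995 and 1817 in high CHIR, without overlap and with Tek called higher. In the control cells described below, where Col18a1 rose too, those sums went from 484 and 251 to 227 and 202 without Cre, from 412 and 326 to 300.5 and 322 with the GFP sgRNA at 24 h and from 280.1, 227 and 262 to 309, 362 and 356 at 48 h. The sums did not overlap in any of these controls, being lower at high CHIR without Cre and at 24 h and higher at 48 h. The part of endothelium in the rise of Col18a1 was not tested.

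Fbln2, a fibulin that binds nidogen and laminin, was 466, 296 and 279 in low and 1288, 853 and 2191 in high CHIR (1.98, SE 0.37, adjusted p = 0.00673). Lamb1, the main laminin β chain of embryonic tissue, rose from 2591, 2342 and 1968 to 4614, 4433 and 4222 (0.95, SE 0.21, adjusted p = 0.0156). The high-CHIR libraries were close together for Lamb1 and spread for Fbln2, without overlap in either case. Col4a6 fell from 473, 491 and 636 to 182, 194 and 313 (-1.24, SE 0.25, adjusted p = 0.00962). Sparc fell from 72344, 78675 and 93201 to 26588, 20558 and 54057 (-1.39, SE 0.29, adjusted p = 0.0125). For Col4a6 and Sparc replicate 3 of high CHIR was the highest of its group. Without it 9 members were called, among them these 8, and without replicate 3 of low CHIR 5 were.

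The other collagen IV and laminin chains tested were not called in this comparison. Their log2 fold changes lay between -0.48 (Col4a4) and 0.88 (Lama5), and the groups overlapped for each of them. Smoc2, a calcium-binding matricellular protein, was not called, and replicate 3 of its high-CHIR libraries was far below the other two. It was at 139, 58.9 and 27.5 in low CHIR and 3257, 2705 and 86.9 in high CHIR. Ureteric epithelium markers summed to 779, 459 and 411 and 1738, 1635 and 404 in these libraries, with replicate 3 of high CHIR again the lowest of its group, and their part in the level of Smoc2 was not tested.

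**Figure D1:**
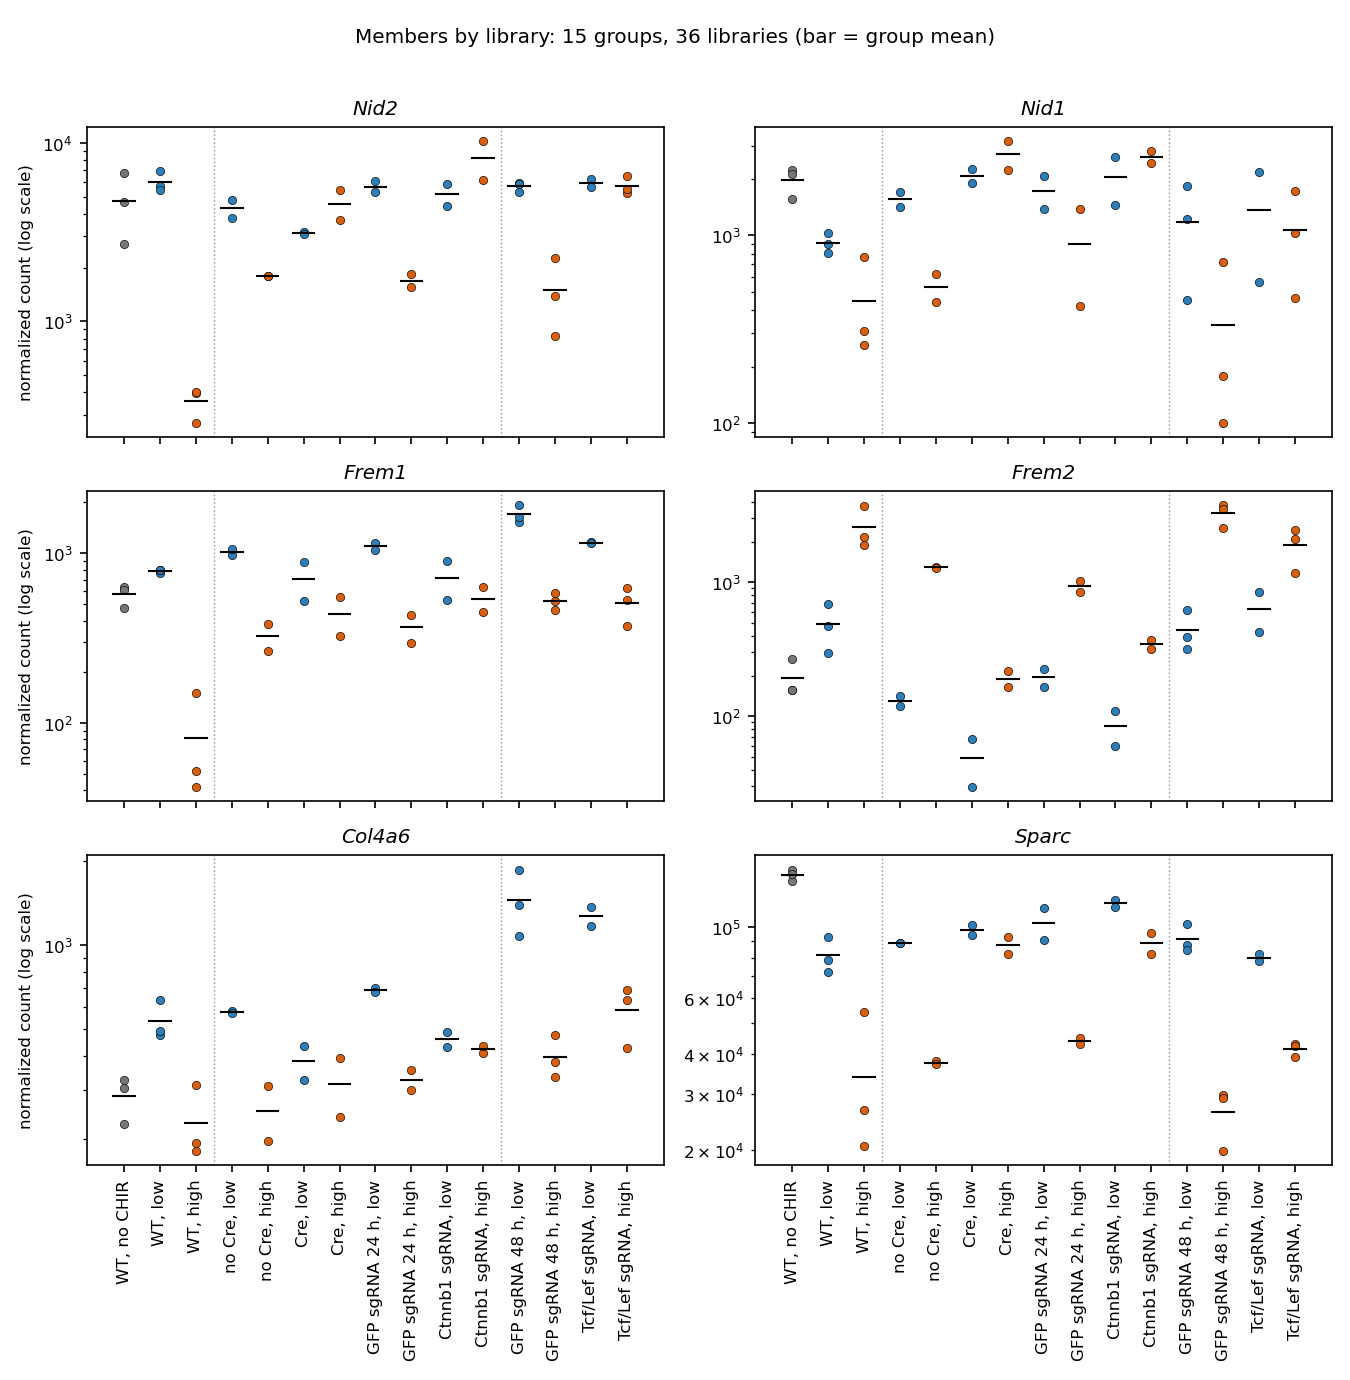
Normalized counts (vertical axes, log scale) of 6 basement membrane genes in each of the 36 libraries, by group along the horizontal axis. Points are libraries, bars are group means, and grey, blue and orange mark no, low and high CHIR. Nid2 lay at 396, 402 and 269 in wild-type NPCs at high CHIR, below the libraries of every other group. In QKO at high CHIR it lay at 5211, 5478 and 6542, beside 5927, 5881 and 5306 in GFP sgRNA controls at low CHIR. With the Ctnnb1 sgRNA at high CHIR it lay at 6190.0 and 10167, beside 6077 and 5298 in GFP sgRNA controls at low CHIR.

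Withdrawal of CHIR was compared with low CHIR to see which of the genes depend on the dose that supports self-renewal. Tinagl1, a secreted glycoprotein related to tubulointerstitial nephritis antigen, and Lama2, the α chain of muscle and stromal laminin, were higher without CHIR, and Fbln1, a fibulin, was lower. These were the 2 of 30 genes called higher and the 1 called lower, against 2.37% and 2.6% of all genes (4.97% in either direction), and groups did not overlap for 11 members against 32.7% of all genes. The member median was 0.08 and that of all genes 0.01.

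Tinagl1 stood at 805, 893 and 1267 without CHIR and 194, 65.5 and 160.5 with low CHIR, its log2 fold change of 2.92 (SE 0.50, adjusted p = 0.0136). Lama2 stood at 115, 177 and 300.5 and 27.6, 29.4 and 33.5, a log2 fold change of 2.57 (SE 0.46, adjusted p = 0.0156). Every library without CHIR lay above every low-CHIR library for both genes. Fbln1 stood at 1542, 806 and 1078 and 3067, 4306 and 3702, a log2 fold change of -1.73 (SE 0.26, adjusted p = 0.00851), with the groups apart in the other direction. No member was called without replicate 3 of no CHIR or without replicate 2 of low CHIR, 1 was without replicate 2 of no CHIR, and 5 were without replicate 1 of no CHIR. Stroma marker sums were 34066, 8494 and 17694 without CHIR and 18919, 17296 and 11373 in low CHIR, and among its markers Acta2 was called higher without CHIR. The part of stroma in these results was not tested.

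Across the full range of doses, from no to high CHIR, 6 members were called higher and 7 lower, against 11.4% and 12% of all genes (23.4% in either direction), and groups did not overlap for 14 members against 39.9% of all genes. The member median was -0.23 and that of all genes 0.02. Tinagl1 stood at 118, 32.1 and 43.0 in high CHIR, which against no CHIR was a log2 change of -4.12 (adjusted p = 0.000345). Frem2 stood at 267, 158 and 156 without CHIR, so that its log2 fold change was 3.71 over this range (adjusted p = 7.44e-05). For Frem2 the 3 doses were in order and did not overlap, whereas Nid2 at 6768, 2721 and 4655 without CHIR overlapped its low-CHIR level.

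Nid1 was called only in this wild-type comparison, at 2238, 1560.3 and 2116, 806, 902 and 1025 and 764, 309.9 and 262 from no to high CHIR (-2.30 on the log2 scale, SE 0.34, adjusted p = 0.00106). Its 3 groups did not overlap. Stroma marker sums were 14327, 4373 and 7236 in high CHIR, where Dcn and Foxd1 were called lower than without CHIR, and the part of stroma in the fall of Nid1 was not tested. Sparc, at 139428, 151174 and 146105 without CHIR, also lay in order over the doses (-2.23, adjusted p = 0.000484). The no-CHIR and high-CHIR comparisons share the low-CHIR libraries, and their values are set side by side only. Smoc2 passed the threshold here (3.64, SE 1.20, adjusted p = 0.0498) although its groups overlapped, and it did not pass with a pseudocount of 0.5 or with only the groups compared (adjusted p up to 0.0934).

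The control cells of the knockout experiments gave 3 further measures of the response to high CHIR, in separate libraries. Of the 28 members tested in all 4 settings, Lamb1, Col18a1 and Frem2 were called higher in all 4, against 0.956% of the 14952 genes tested in all 4, and Col4a6, Nid2, Frem1 and Sparc were called lower in all 4, against 1.49%. No member was called in opposite directions in different settings. Of the 34 members, 15 were called in none of the 4, among them Lama1, Lama2, Lama5, Hspg2, Agrn, Dag1 and Pxdn, which were tested in all 4. The 15 also include Lama3, Lamc3 and Smoc1, tested in 0 of the 4, Lamb3, tested in 1, and Col4a3 and Col15a1, tested in 3. They are therefore not all genes seen to lack a response, and the share of all genes called in none was not counted.

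In NPCs without Cre, 4 of 30 members were higher and 6 lower at high CHIR, against 2.8% and 5.24% of all genes called (8.05% in either direction), with groups apart for 21 members against 47.1% of all genes. In GFP sgRNA controls of the β-catenin set, 8 were higher and 5 lower, against 2.98% and 4.53% (7.51%), with groups apart for 23 members against 57.8%. In GFP sgRNA controls of the Tcf/Lef set, 5 of 29 were higher and 8 lower, against 6.98% and 7.96% (14.9%), with groups apart for 16 members against 29.2%. The member medians were -0.20, 0.22 and -0.13. With the GFP sgRNA at 24 h, 6 members were called without replicate 2 of either dose. With the replicate number as a block, which paired the Tcf/Lef set, 16 members were called in its GFP sgRNA controls, against 20.9% of all genes, the additions being Lama1 (0.57), Lama2 (-2.82) and Nid1 (-2.10). Stroma marker sums went from 9554, 2523 and 342 to 4451, 855 and 337 in these controls. They were lower at high CHIR in replicates 1 and 2 and nearly level in replicate 3. Their part in the changes of Lama2 and Nid1 was not tested.

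Col18a1 rose in each of these controls. It went from 75.5 and 114 to 922 and 971 without Cre, from 74.5 and 69.3 to 855 and 742 with the GFP sgRNA at 24 h, and from 97.8, 54.3 and 35.4 to 1514, 949 and 505 with the GFP sgRNA at 48 h. The log2 fold changes were 3.33, 3.45 and 3.95, with adjusted p of 1.6e-05, 1.37e-05 and 4.5e-05. Groups were apart in each. Lamb1 rose from 907 and 1249.9 to 9002 and 3909, from 1859 and 1226 to 8502 and 7223 and from 1326, 1056 and 1230.2 to 5509, 5655 and 8621. Its log2 fold changes were 2.48, 2.38 and 2.43, beside 0.95 in wild-type NPCs, and the high-CHIR libraries were the higher throughout.

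Lama4, the α chain of mesenchymal and vascular laminin, was called in these controls and not in wild-type NPCs, where it stood at 659.6, 562 and 326 in low and 797, 559.7 and 278 in high CHIR. Without Cre it went from 214 and 234 to 1705 and 1257 (2.70, adjusted p = 0.001). With the GFP sgRNA it went from 671 and 287 to 1891 and 1432 at 24 h (1.90, adjusted p = 0.0127). At 48 h it went from 102, 80.9 and 128 to 2329, 2430.2 and 3083 (4.66, SE 0.27, adjusted p = 1.08e-06). Groups did not overlap in these controls, and the difference from wild-type NPCs was not tested because the tables were normalized apart. Per kilobase Lama4 reached 217 ± 33.9 in the last of these groups (n = 3), above Lama1 (19.9 ± 0.84) and Lama5 (13.9 ± 3.6) in the same libraries.

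Nid2 fell in the same controls from 3813 and 4769 to 1783 and 1796 without Cre, from 6077 and 5298 to 1549 and 1836 with the GFP sgRNA at 24 h and from 5927, 5881 and 5306 to 1387, 827 and 2264 at 48 h. The log2 fold changes were -1.25, -1.75 and -2.05 (adjusted p = 0.00547, 0.000542 and 0.000328). They stand beside -4.10 in wild-type NPCs, a difference that was not tested. Tinagl1 was called lower in all 3 sets of controls (-1.98, -1.80 and -1.75) but not in wild-type NPCs (-1.20, adjusted p = 0.172), where its groups overlapped. None of the 3 calls of Tinagl1 held with only the groups compared (adjusted p = 0.0665, 0.0968 and 0.067), and in the no-Cre controls neither did those of Col4a6 (adjusted p = 0.0798) and Sparc (adjusted p = 0.154). The main collagen IV pair was called only with the GFP sgRNA at 24 h, Col4a1 at 1.09 and Col4a2 at 1.06, as was Lamc1 at 1.21. Smoc2 was called in the GFP sgRNA controls at 48 h, from 3.67, 3.95 and 1.73 to 351, 615 and 224 (6.52, SE 0.91).

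**Figure D2:**
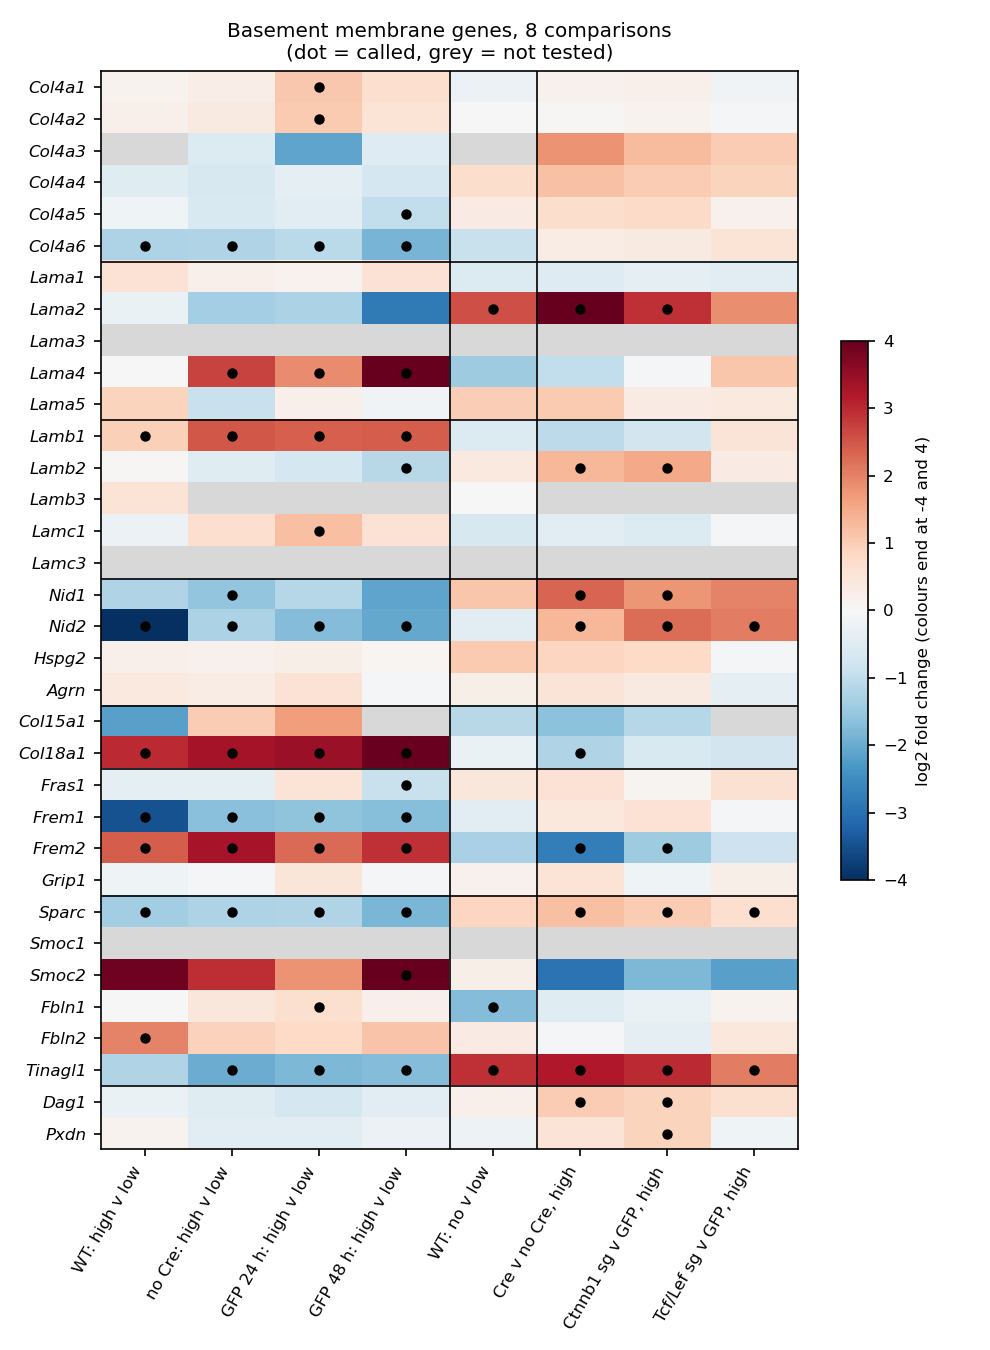
Log2 fold changes (colour scale, ends at -4 and 4) of the 34 genes (rows, in the order of their roles) in 8 comparisons (columns): high against low CHIR in 4 settings, no against low CHIR, and 3 removals at high CHIR. Dots mark called values and grey marks genes under the minimum mean. Nid2, Sparc, Frem1 and Col4a6 are blue and Lamb1, Col18a1 and Frem2 red with a dot in all 4 settings of high against low CHIR. The removals at high CHIR share their control libraries with 3 of those columns.

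To ask which basement membrane genes depend on β-catenin during self-renewal, removal was compared with control at low CHIR. No member was called after Cre (0.328% of all genes called) or after the Ctnnb1 sgRNA (0.0536%) by limma with Benjamini-Hochberg adjustment. At an unadjusted p under 0.05 there were 10 members after Cre (10.7% of all genes) and 4 after the Ctnnb1 sgRNA (3.43%), and on recovered reads edgeR called 0 and DESeq2 2 after Cre. No count test was run for the Ctnnb1 sgRNA at low CHIR, since 1 control library was not used in count tests. Without replicate 1 of Cre, 1 member was called. Frem2 was 67.3 and 29.6 after Cre against 141 and 119 without, and 60.3 and 110.2 after the Ctnnb1 sgRNA against 166 and 225. Its groups were apart in both, with log2 fold changes of -1.51 and -1.23 and adjusted p of 0.121 and 1. Groups did not overlap for 21 members after Cre, against 34.3% of all genes, and for 11 after the Ctnnb1 sgRNA, against 30.1%. Stroma marker sums at low CHIR were 13437 and 19578 after Cre against 5236 and 12705 without, also without overlap. They were 28672 and 14112 after the Ctnnb1 sgRNA against 22795 and 8608 with the GFP sgRNA, which overlapped. The part of stroma in these counts was not tested.

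At high CHIR both nidogens, Sparc, Lamb2, Lama2, Tinagl1 and Dag1 were higher, and Frem2 lower, after removal by either means. After Cre 7 of 30 members were called higher and 2 lower, against 5.9% and 2.75% of all genes (8.65% in either direction), and groups were apart for 23 members against 47.3%. After the Ctnnb1 sgRNA 8 were higher and 1 lower, against 3.44% and 1.64% (5.09%), with groups apart for 23 members against 61.3%. The member medians were 0.53 and 0.33, and those of all genes -0.02 and 0.00. After the Ctnnb1 sgRNA only 2 members were called without replicate 2 of either group and 5 without replicate 1 of the Ctnnb1 sgRNA group. With only the groups compared, Lamb2 (adjusted p = 0.0766), Sparc (0.0894), Dag1 (0.117) and Col18a1 (0.12) were not called after Cre.

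Nid2 stood at 5425 and 3695 after Cre against 1783 and 1796 without, a log2 fold change of 1.32 (SE 0.24, adjusted p = 0.00364). With the Ctnnb1 sgRNA it stood at 6190.0 and 10167 against 1549 and 1836, a log2 fold change of 2.23 (SE 0.24, adjusted p = 0.000114). All 4 libraries of the removals were above all 4 controls. Nid1 stood at 2236 and 3166 against 444 and 624 (2.34, SE 0.44, adjusted p = 0.00401) and at 2815 and 2429 against 1389 and 420.2 (1.77, SE 0.44, adjusted p = 0.0348). The GFP sgRNA libraries were uneven for Nid1, replicate 1 being the higher. The call of Nid1 after the Ctnnb1 sgRNA was lost with only the groups compared and with edgeR (adjusted p up to 0.0771).

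Lama2 and Tinagl1 had the largest rises. Lama2 was 503 and 704 after Cre against 22.1 and 41.5 without, a log2 fold change of 4.25 (SE 0.75, adjusted p = 0.00257). Removal by the Ctnnb1 sgRNA left it at 189.7 and 318 against 92.2 and 10.53, a log2 fold change of 2.91 (SE 0.75, adjusted p = 0.0405). Replicate 2 of the GFP sgRNA group was far below replicate 1 for Lama2. After the Ctnnb1 sgRNA the call of Lama2 was lost with only the groups compared, with edgeR and with DESeq2 (adjusted p up to 0.114). Tinagl1 was 215 and 447 against 34.1 and 31.1 (3.21, SE 0.48, adjusted p = 0.000818) and 332 and 258 against 59.9 and 22.02 (2.97, SE 0.48, adjusted p = 0.00285), without overlap. Stroma marker sums at high CHIR were 9397 and 16438 after Cre against 4512 and 6552 without, and 21915 and 13524 after the Ctnnb1 sgRNA against 15893 and 4798. They did not overlap after Cre and overlapped after the Ctnnb1 sgRNA, and none of the 10 stroma markers tested was called in either comparison. The part of stroma in the rises of Lama2, Nid1 and Tinagl1 was not tested.

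Frem2 fell after removal, to 165 and 217 after Cre from 1303 and 1286 without (-2.77, SE 0.36, adjusted p = 0.000276). After the Ctnnb1 sgRNA it was 316 and 372 against 845 and 1018 (-1.43, SE 0.36, adjusted p = 0.038). Both removals left it apart from and below the controls. Col18a1 was lower after Cre, at 302 and 563 against 922 and 971 (-1.20, SE 0.31, adjusted p = 0.0299), and was not called after the Ctnnb1 sgRNA (613 and 451 against 855 and 742, -0.60, adjusted p = 0.322). Lamb2, the β chain of mature laminins, was 1034 and 671 against 391 and 280.1 (1.33, adjusted p = 0.00698) and 867 and 1154 against 366 and 331 (1.52, adjusted p = 0.00515). Sparc was 82145 and 92816 against 37929 and 37145 (1.22) and 82198 and 95373 against 44778 and 43045 (1.01). Sparc and Lamb2 were thus higher in every removal library than in every control. Dag1, the dystroglycan receptor of laminin, passed the threshold after both removals (1.02 and 0.90), and Pxdn after the Ctnnb1 sgRNA (0.88).

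The response to high CHIR was then measured within the cells after removal. After Cre 1 of 30 members was called, Frem2, which went from 67.3 and 29.6 to 165 and 217 (2.06, SE 0.36, adjusted p = 0.0301), and 0.28% of all genes were called higher (0.292% in either direction). After the Ctnnb1 sgRNA 5 members were called higher, against 0.626% of all genes (0.763% in either direction), namely Col18a1 (2.29), Frem2 (2.06), Lamb1 (1.80), Col4a2 (1.40) and Col4a1 (1.27). None of the members was called after the Ctnnb1 sgRNA without replicate 1 of that group at high CHIR, 3 were without replicate 2, and 2 were without replicate 2 at low CHIR. After Cre, the call of Frem2 held in 1 of 4 fits that left out 1 library, being lost without replicate 2 at low CHIR and without either replicate at high CHIR, and it was lost with only these groups compared (adjusted p = 0.893). With edgeR Lamb1 was not called after the Ctnnb1 sgRNA (adjusted p = 0.0552). No member was called lower after either removal, against 0.0119% and 0.137% of all genes. Groups did not overlap for 14 members after Cre, against 27.9%, and for 16 after the Ctnnb1 sgRNA, against 44.5%.

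The difference between the responses with and without removal was tested directly as an interaction. For Nid2 the response differed by 1.77 on the log2 scale (SE 0.35, adjusted p = 0.024) between Cre and no Cre, and by 2.38 (SE 0.35, adjusted p = 0.00592) between the Ctnnb1 and GFP sgRNAs. Nid2 was the 1 member called in each, against 0.995% and 0.518% of all genes. Its level at low CHIR was 3172 and 3067 after Cre and 5907 and 4448 after the Ctnnb1 sgRNA, so its mean at high CHIR was not below that at low CHIR in either. The call held in 8 of 8 fits that left out 1 library for the sgRNA and in 2 of 8 for Cre, where it was lost with only the groups compared as well (adjusted p = 0.0746). At an unadjusted p under 0.05, 10 and 9 members differed, against 8.51% and 6.91% of all genes.

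Lamb1, Col18a1 and Lama4 had responses that were smaller by -1.71, -1.78 and -1.56 after Cre, with adjusted p of 0.177, 0.0937 and 0.401. After the Ctnnb1 sgRNA the differences were -0.58, -1.16 and -0.01, none of them called. A difference in the response of Frem2 was not called either (-1.25, SE 0.51, and -0.20, SE 0.51).

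**Figure D3:**
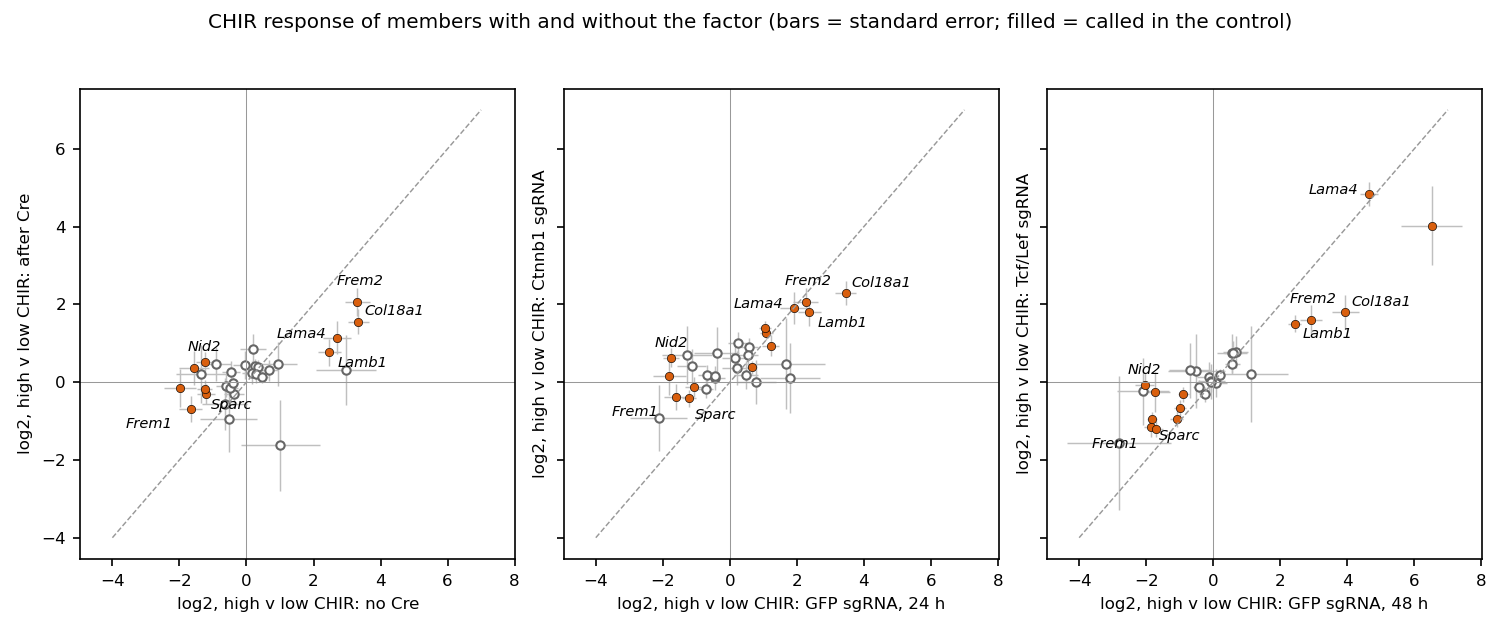
Log2 fold change of high against low CHIR in control cells (horizontal axes) against the same in cells after removal (vertical axes) for the tested members, one panel each for Cre, the Ctnnb1 sgRNA and the Tcf/Lef sgRNAs. Bars are standard errors, filled points were called in the control, and the dashed line marks equal responses. Nid2 lies at -1.25, -1.75 and -2.05 on the horizontal axes and at 0.52, 0.63 and -0.06 on the vertical axes, while Lama4 lies close to the line in the last panel at 4.66 and 4.84.

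Removal of the 4 Tcf/Lef factors was compared with the GFP sgRNA in the same way. At low CHIR no member was called by limma, against 0.0063% of all genes. There were 4 members at an unadjusted p under 0.05, against 4.45% of all genes, and on recovered reads edgeR called 0 and DESeq2 called 1. Groups did not overlap for 7 members against 16.4% of all genes. Lamb1 stood at 3615 and 2964 in QKO and 1326, 1056 and 1230.2 in controls (1.45, SE 0.22, adjusted p = 0.0955), apart from each other. With the replicate number as a block it was called (1.42, SE 0.21, adjusted p = 0.0471), the only member among the 0.101% of all genes called in that fit.

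At high CHIR 3 of 29 members were called higher in QKO and none lower, against 2.05% and 0.491% of all genes (2.54% in either direction), with groups apart for 9 members against 19.9%. The member median was 0.34 and that of all genes 0.00. Nid2 stood at 5211, 5478 and 6542 in QKO against 1387, 827 and 2264 in controls, a log2 fold change of 2.06 (SE 0.27, adjusted p = 0.00224). Tinagl1 stood at 128, 160.0 and 89.7 against 51.9, 31.4 and 14.9, a log2 fold change of 2.04 (SE 0.46, adjusted p = 0.0388). Sparc stood at 42792, 39210.5 and 42263 against 29728, 19827 and 29116, a log2 fold change of 0.68 (SE 0.15, adjusted p = 0.0388). For each of these genes all QKO libraries were above all controls. Only 1 of the 3 was called without replicate 2 of the controls, and the same held without replicate 1, 2 or 3 of QKO. Without replicate 3 of the controls 2 of the 3 were called. With only the groups compared Sparc was not called (adjusted p = 0.0662).

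The replicate number paired the libraries of this set, and with it as a block 8 members were called at high CHIR, against 7.44% of all genes. The block added Nid1 (1.995, adjusted p = 0.000459), Lama2 (1.87, adjusted p = 0.0204), Lama4 (1.12, adjusted p = 0.0318), Dag1 (0.65, adjusted p = 0.0177) and Fras1 (0.62, adjusted p = 0.0434). Nid1 stood at 1716, 1036 and 465 in QKO replicates 1 to 3 against 719, 179 and 99.9 in the controls, so it was higher in QKO within each replicate number although the groups overlapped. Stroma marker sums were 9773, 3105 and 773 in QKO against 4451, 855 and 337 in controls, also higher in QKO within 3 of 3 replicate numbers. The part of stroma in the rises of Nid1, Lama2 and Tinagl1 was not tested. Blood markers summed to 2822 in replicate 1 of the controls, the highest of any library.

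Lama4 rose with high CHIR in QKO NPCs as well. At high CHIR it stood at 4368, 7395 and 5521 in QKO and 2329, 2430.2 and 3083 in controls, apart from each other (1.12, SE 0.27, adjusted p = 0.0535). Per kilobase it reached 477 ± 127, beside Col4a1 at 481 ± 85.8 in the same libraries (n = 3). From low to high CHIR in QKO cells it rose from 276 and 139 to 4368, 7395 and 5521, a log2 fold change of 4.84 (SE 0.30, adjusted p = 1.52e-05).

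In all, 3 members were called higher and 4 lower with high CHIR in QKO NPCs, against 1.42% and 1.12% of all genes (2.54% in either direction). Frem2 (1.60) and Lamb1 (1.502) rose with Lama4, and Frem1 (-1.21), Col4a6 (-1.14), Sparc (-0.95) and Lamb2 (-0.95) fell. Groups were apart for 15 members against 38.1% of all genes. Nid2 (5655 and 6293 at low CHIR) had a log2 fold change of -0.06 (SE 0.30, adjusted p = 0.954). Without replicate 3 of QKO at low CHIR 1 of the 7 was called, and without replicate 1 of that group 2 of the 7 were. Without replicate 2 of QKO at high CHIR 3 of the 7 were called, and without replicate 3 of that group 4 were. With the block 9 were called, against 6% of all genes, the additions being Col18a1 (1.81) and Smoc2 (3.73). With only the groups compared Col4a6 (adjusted p = 0.052), Lamb2 (up to 0.0568) and Frem2 (up to 0.0881) were not called, nor were the last 2 by edgeR.

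No member's response to CHIR differed between QKO and control cells by limma without the block, against 0.126% of all genes, with 6 at an unadjusted p under 0.05, against 5.1% of all genes. Neither edgeR nor DESeq2 was run on this difference, since 1 control library was not used in count tests. Nid2 differed by 1.99 (SE 0.40, adjusted p = 0.122). With the block 3 members were called, against 0.857%, namely Nid2 (2.11, adjusted p = 0.0211), Nid1 (1.86, adjusted p = 0.0376) and Sparc (0.96, adjusted p = 0.0322).

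Several members moved with the stroma signal from library to library. Within each of the 15 groups, the library with the highest stroma marker sum was compared with the library in which a member was highest. They were the same library in 14 of 15 groups for Nid1, in 13 for Col15a1, Col4a4 and Fbln2 and in 12 for Lama2 and Col18a1. For all 14943 genes with a mean of at least 10 in every table the median was 6 groups, and 1.76% reached 13 or more. Among the members the count was 11 for Lamb1, Tinagl1, Col4a1, Col4a3 and Fras1 and 10 for Frem1, Col4a2 and Lama3. The share of all genes at 10, 11 or 12 groups was not counted. Col15a1, Col4a3 and Lama3 had a mean under 10 in at least 1 of the sets, so the genes used for that median and share do not cover them. The count was 6 for Nid2, 7 for Sparc, 4 for Frem2 and 2 for Col4a6. The clearest case was the GFP sgRNA group at 48 h and low CHIR. There the stroma sum was 9554, 2523 and 342, Nid1 1843, 1221 and 454, Lama2 176, 54.3 and 13.8 and Fbln2 196, 24.7 and 14.7, each in the same order over the libraries, while Nid2 was level at 5927, 5881 and 5306.

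**Figure D4:**
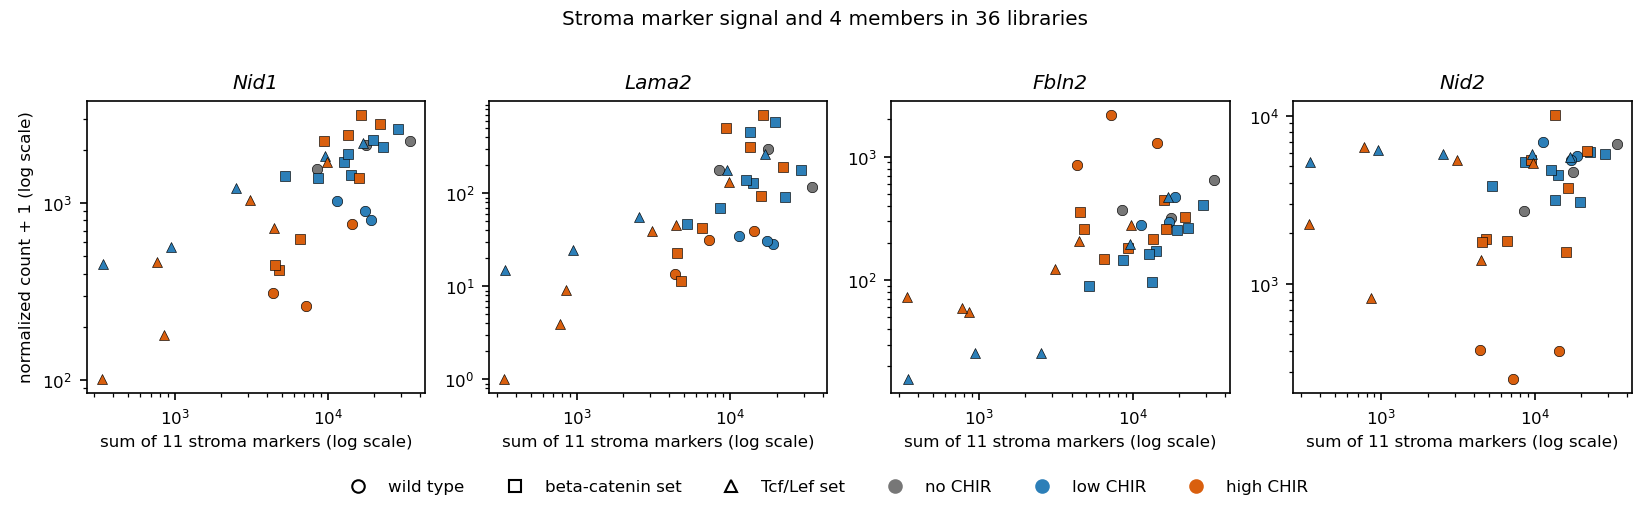
Sum of the normalized counts of 11 stroma markers (horizontal axes, log scale) against the normalized count + 1 of Nid1, Lama2, Fbln2 and Nid2 (vertical axes, log scale) in the 36 libraries. Symbols mark the 3 tables, which were normalized apart, and colours the dose. In the Tcf/Lef set (triangles) at low CHIR with the GFP sgRNA, Nid1 goes from 1843 to 454 as the stroma sum goes from 9554 to 342, while Nid2 stays between 5306 and 5927.

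Genes that act with these components were followed in 3 further lists. Of 17 tested enzymes of collagen folding, secretion and cross-linking, 2 were called lower at high CHIR in wild-type NPCs, Lox and P3h3, against 5.05% of all genes, with a list median of -0.03 against 0.01 for all genes. At high CHIR 7 of 16 were called higher after Cre and 1 lower (median 0.95 against -0.02, with 5.9% and 2.75% of all genes called) and 4 higher after the Ctnnb1 sgRNA (median 0.74 against 0.00, with 3.44% of all genes called), while in QKO Loxl2 was the 1 called, lower (0.491% of all genes). The collagen lysyl hydroxylases Plod2 and Plod3 and the prolyl hydroxylases P3h3 and P4ha3 were among those higher after both removals of β-catenin.

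Of 12 further basement membrane components tested in wild-type NPCs, Egfl6 was called higher and Hmcn1 lower at high CHIR (list median -0.01), against 5.33% and 5.05% of all genes. Hmcn1, hemicentin, was also called lower at high CHIR in the no-Cre controls and both GFP sgRNA controls and higher after both removals of β-catenin at high CHIR. A list drawn up for receptors of laminin and collagen IV had 8 genes tested in wild-type NPCs. Of these the integrin α chain Itga6 was called higher and the integrin α chain Itga9 lower at high CHIR (list median 0.32), against the same shares of all genes. Whether Itga9 binds laminin or collagen IV was not examined. Itga6, which binds laminin, was called higher after both removals at high CHIR as well, although the removals share their high-CHIR controls with the dose comparison in those cells.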

How the data were processed

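NPC RNA was measured by RNA-seq in 36 libraries. The authors made SMARTer cDNA, which does not mark strand, sequenced paired ends, aligned them with STAR to GRCm38 and GRCh38 and counted reads per gene with featureCounts. The deposited signal values are normalized counts, which the authors scaled by DESeq2 size factors (median of ratios) separately for each of 3 tables. The 8 deposited comparison tables hold the authors' fold changes and p-values and were not used.

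The values were tested with limma 3.58.1 (R 4.3.3, a trend in the variance) on log2(normalized count + 1), for genes with a mean of at least 10, over all libraries of a table. P-values were adjusted by Benjamini-Hochberg over all genes tested. A call needed both an adjusted p below 0.05 and a change of 0.5 or more on the log2 scale. In all 36 libraries the low values lay within 0.01 of a whole multiple of the smallest value above 0. In 3 of them that value was close to 1 (0.9935, 1.0097 and 1.0113), so whole reads were taken as recovered in the other 33 only. On those 33 edgeR 4.0.16 and DESeq2 1.42.0 ran in 9 comparisons. Intervals and tests cover these libraries only. The fits were tested on simulated data. Values of at most 8 called members with a mean of at least 50 are given in full per comparison. The members and the lists of other genes and markers were chosen with earlier results of these data known.

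In the Tcf/Lef set, deviations from group means correlated at 0.249 to 0.637 between libraries of the same replicate number, above 0.1 for every pair, so the numbers were taken to pair them. In wild-type NPCs they ran from -0.0156 to 0.272 and were not.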

Additional observations from a re-analysis of the deposited data

Results flagged for a closer look

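Nid2 had a different response to high CHIR with and without removal of β-catenin, by the interaction test of limma with Benjamini-Hochberg adjustment. Its log2 fold change was 1.77 higher after Cre than without Cre (from -1.25 to 0.52) and 2.38 higher after the Ctnnb1 sgRNA than with the GFP sgRNA (from -1.75 to 0.63). Both libraries of each removal lay above both controls at high CHIR. The call for Cre was lost in limma with only the groups compared (adjusted p = 0.0746) and in most fits that left out 1 library. The call for the Ctnnb1 sgRNA held in each of these. No cause was tested.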

How the results depend on the processing

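No called fold change of a member reversed under any alternative, among a pseudocount of 0.5, no filter on low values, TMM scaling, the replicate block, only the groups compared, edgeR, DESeq2 and leaving out 1 library. Of 96 called values 95 held with the other pseudocount, all 96 with TMM, without the filter and with the block, and 77 with only the groups compared. Of 55, edgeR kept 49 and DESeq2 54, and a cut-off of 1 lost Lamb1 in wild-type NPCs. With the replicate block the members called came to 5 for no against low CHIR (3 without it), 4 and 16 for Cre at low and high CHIR (0 and 9), 2 and 8 for the CHIR response after Cre and after the Ctnnb1 sgRNA (1 and 5), 7 and 3 for the differences of response to these (1 and 1), 1 and 8 for QKO at low and high CHIR (0 and 3) and 3 for the difference of response to QKO (0). The β-catenin set has 2 replicate numbers, so that each comparison gives 1 correlation of the deviations (0.142 to 0.518, all above 0.1), and with fewer than 3 pairs the numbers were not taken to pair its libraries. With only the groups compared the counts were 7 for no against low CHIR, 5 for Cre at high CHIR, and 0 for the response after Cre and for its difference. DESeq2 gave 8 for no against low CHIR, 2 for Cre at low CHIR, 8 for the response after the Ctnnb1 sgRNA and 1 for QKO at low CHIR, where no filter also gave 1. Leaving out 1 library, called members ranged from 5 to 10 in wild-type NPCs for high against low CHIR, 0 to 5 for no against low, 0 to 1 for Cre at low CHIR, 2 to 6 for the Ctnnb1 sgRNA at high CHIR, and 6 to 11 for the CHIR response with the GFP sgRNA at 24 h. They ranged from 0 to 1 for the response after Cre, 0 to 5 after the Ctnnb1 sgRNA, 0 to 2 for the difference of response to Cre, 1 to 3 for QKO at high CHIR, 1 to 5 for the response after QKO and 0 to 1 for the difference of response to QKO. The cause of these shifts was not tested. Groups of 2 or 3 libraries limit every call, and members with a mean under 10 were not testable at this depth.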
